A study of Homo sapiens with 2 samples.

Results

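Transcripts of the glucose transporters and hexokinases were examined in the hNCI-H716 cell line, a human colorectal adenocarcinoma line of the cecum used as a model of the intestinal L-cell, the enteroendocrine cell that secretes glucagon-like peptide-1. The members were 9 genes, the transporters SLC2A1, SLC2A2, SLC2A3, SLC2A5 and SLC5A1 and the hexokinases HK1, HK2, HK3 and HKDC1. Of these, 5 were among the 19989 genes with a row in the deposited table. They were chosen by family, at a time when the CPM of these 2 libraries and the low ratio of HKDC1 were already known, so their ratios are given as a description and support nothing further. The cells had first attached to Matrigel for 24 h and then spent 48 h in DMEM with 10% fetal bovine serum at either 5.5 mM (low) or 25 mM (high) glucose. Sequencing of polyadenylated RNA gave 1 library per concentration, so no difference has a replicate check, no p-value was computed, and glucose cannot be told apart from any other difference between the 2 cultures of this 1 line.

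Glucose enters cells through the facilitative GLUT carriers, encoded by the SLC2A family, which let sugars run down their gradient, or through SGLT carriers of the SLC5A family, which move glucose together with sodium. Hexokinases then phosphorylate glucose to glucose 6-phosphate, which traps it in the cell and feeds glycolysis, the pentose phosphate pathway and glycogen. In the intestine, SGLT1 takes up glucose at the brush border, GLUT5 takes up fructose and GLUT2 carries sugars across the basolateral membrane, and sugar sensing by L-cells has been tied to SGLT1.

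Of the 9 members, 5 had a row in the table. These were 2 of the 5 transporters (SLC2A1 and SLC2A3) and 3 of the 4 hexokinases (HK1, HK2 and HKDC1), and all 5 lay above 3 estimated counts in both libraries. SLC2A2, SLC2A5, SLC5A1 and HK3 had no row in the table used here and counted as not detected. The low glucose library held 21757767 estimated counts and the high glucose library 19456807, depths at which a count of 0 (3 counts taken as the limit) allows 0.138 and 0.154 CPM. CPM, the unit of the deposited table, scales the estimated count of a gene to the size of its library, and every interval below is a 95% interval that covers counting error only.

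The line was checked against marker lists. L-cell markers had rows for 6 of 9 genes and summed to 4270 CPM under low glucose and 4087 CPM under high glucose, with GCG, the proglucagon gene, highest at 1954 and 1808 CPM. PYY, NEUROD1 and INSL5 had no row. Epithelial markers had rows for 7 of 7 genes and summed to 498 and 563 CPM, although EPCAM was at 3.37 and 3.50 CPM and CDH1 at 1 and 3 estimated counts. Of the absorptive cell markers 3 of 8 had a row, with sums of 6.25 and 4.45 CPM. Immune, stromal and endothelial markers had rows for 6 of 8 genes and summed to 1271 and 1168 CPM, nearly all from COL3A1 and LYZ, while PTPRC and CD3E had no row. Of the 7 epithelial markers, 5 averaged 1 CPM or more, and 4 of these had a counting interval of the high over low glucose log2 ratio above 0, against 15.8% of all genes averaging 1 CPM or more. VIL1 had the highest ratio of these 5, at 0.61 (0.38 to 0.85), while the interval of EPCAM held 0 (-0.44 to 0.55). The absorptive marker ANPEP, the 1 gene of its list averaging 1 CPM or more, was lower in the high glucose library, at -0.50 (-0.92 to -0.08). For the 6 L-cell markers with a row, the interval lay below 0 for 3 and above 0 for 2, against 15.9% and 15.8% of all genes. Their ratios ran from GCG at -0.11 to SCGN at 0.27. Of the 3 immune, stromal and endothelial markers averaging 1 CPM or more, the interval lay below 0 for 2. Abundant transcripts pass on small differences. The part of these differences in the results below was not tested. In a bulk library, fewer cells of a kind and less RNA per cell cannot be told apart.

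HKDC1, the hexokinase whose transcript differed most between the libraries, is followed on chromosome 10 by HK1, the most abundant hexokinase. In GENCODE v29 (GRCh38), HKDC1 (ENSG00000156510.12) lies at 69220303 to 69267559 and HK1 (ENSG00000156515.23) at 69269984 to 69401884, both on the plus strand, with 2424 bases between them. HK2 (ENSG00000159399.9) lies on chromosome 2, at 74833981 to 74893359 on the plus strand. The principal transcripts of HKDC1, HK1 and HK2 each have 18 exons and a coding sequence of 2751 bases. The sequences ahead of their transcription starts are shown because the transcripts of these related enzymes differed in direction between the libraries. They come from RefSeq promoter windows (GRCh38.p14), which matched 8 of the 9 members and not SLC2A3, and each is printed as far as it lies outside the gene's annotated exons.
HKDC1, chr10:69220082-69220302, plus strand: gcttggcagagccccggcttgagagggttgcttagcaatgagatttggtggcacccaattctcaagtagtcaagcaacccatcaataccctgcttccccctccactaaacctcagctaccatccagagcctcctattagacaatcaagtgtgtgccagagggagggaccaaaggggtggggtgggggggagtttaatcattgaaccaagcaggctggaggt
HK1, start farthest upstream, chr10:69269750-69269983, plus strand: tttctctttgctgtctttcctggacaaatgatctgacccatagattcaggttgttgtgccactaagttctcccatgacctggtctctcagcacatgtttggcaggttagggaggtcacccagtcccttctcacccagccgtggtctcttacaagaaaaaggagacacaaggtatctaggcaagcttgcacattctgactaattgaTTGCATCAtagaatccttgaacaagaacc
HK2, downstream start, chr2:74834920-74835169, plus strand: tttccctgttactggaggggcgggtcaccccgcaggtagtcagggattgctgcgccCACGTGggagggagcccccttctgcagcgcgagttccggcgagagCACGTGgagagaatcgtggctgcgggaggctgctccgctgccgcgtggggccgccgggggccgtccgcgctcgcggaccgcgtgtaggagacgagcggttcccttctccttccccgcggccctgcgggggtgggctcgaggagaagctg

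Capitals mark matches to 3 motifs that were searched on both strands. The motif CACGTG is the E-box core recognised by basic helix-loop-helix factors such as CLOCK and BMAL1. The motif TGATGNAA belongs to the element bound by C/EBP and ATF factors. The motif TATAAA is the core of the TATA box. The HKDC1 window of 250 bases ahead of its start held none of these letters. The downstream HK2 window held CACGTG 2 times and the other HK2 window 0 times, for a motif found in 6.34% of all 35116 RefSeq windows of that length. The HK1 window printed here held 1 match to TGATGNAA, as did the window that starts 5 bases further on and overlaps it, while the other 5 of the 7 HK1 windows held none. That motif was found in 3.14% of windows and, among the other members, in the SLC2A5 window. TATAAA, in 10.7% of windows, occurred in the SLC2A1 and SLC2A5 windows. The deposited values are per gene and do not say which start was used. For HK1 and HK2 the window printed is one that held a match, and their windows without a match are not printed. The shares over all windows are per window. The 7 HK1 windows and the 2 HK2 windows thus gave more chances of a match than the 1 HKDC1 window. A match of letters is a description and not a binding site.

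**Figure D1:**
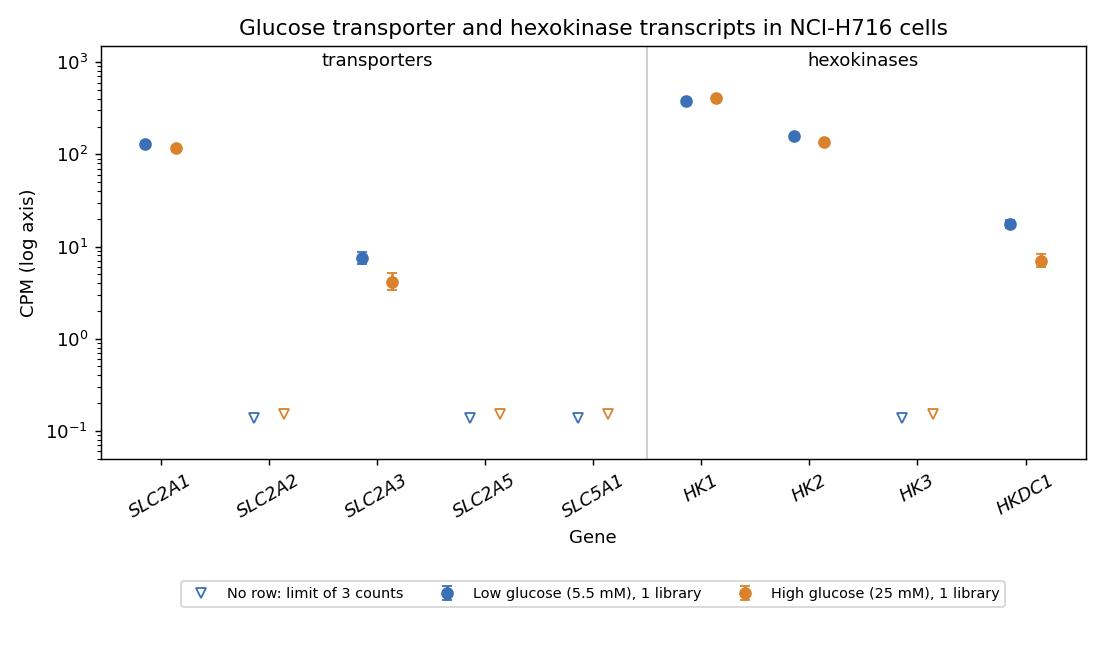
CPM of the 9 members in the low glucose (blue) and high glucose (orange) library on a log axis, 1 library each, with 95% Wilson intervals from counts; open triangles mark members without a row, drawn at the limit of 3 counts. HK1 stands highest, at 379 and 413 CPM, and the blue and orange points lie farthest apart for HKDC1, at 17.7 and 7.04 CPM.

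Among the hexokinases, HKDC1 was lower in high glucose, HK2 slightly lower and HK1 slightly higher. HKDC1, hexokinase domain containing 1, is the most recently recognised member of the family. It was at 17.7 CPM under low glucose (Wilson interval of 16.0 to 19.6, 385 estimated counts) and at 7.04 CPM under high glucose (5.95 to 8.31, 137 estimated counts). The high glucose library was thus 60.3% below the low glucose library, and the intervals did not overlap. On the log2 scale, the high glucose value over the low was -1.33 (exact binomial interval -1.63 to -1.05).

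HK2, the inducible hexokinase of muscle and many tumours, was at 159 CPM under low glucose (153 to 164, 3446 estimated counts) and at 135 CPM under high glucose (130 to 141, 2639 estimated counts). Its log2 ratio was -0.23 (-0.30 to -0.15). HK1, the widely expressed hexokinase of brain and red cells, was at 379 CPM under low glucose (371 to 387) and at 413 CPM under high glucose (404 to 422). The log2 ratio of HK1 was 0.12 (0.08 to 0.17), opposite in sign to that of its neighbour HKDC1. HK3, a hexokinase of white blood cells, had no row.

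Among the transporters, SLC2A1 was the most abundant, and SLC2A3 was the member with the log2 ratio farther from 0. SLC2A1 encodes GLUT1, the carrier for basal glucose uptake in most cultured cells. It lies on chromosome 1 at 42925375 to 42959176, on the minus strand. It was at 128 CPM under low glucose (124 to 133, 2787 estimated counts) and at 118 CPM under high glucose (113 to 123, 2296 estimated counts). The log2 ratio was -0.12 (-0.20 to -0.04).

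SLC2A3 encodes GLUT3, a carrier of high affinity known best from neurons. It lies on chromosome 12 at 7919230 to 7936275, on the minus strand. SLC2A3 was at 7.51 CPM under low glucose (6.43 to 8.74, 163 estimated counts) and at 4.17 CPM under high glucose (3.34 to 5.17, 81.0 estimated counts). The high glucose library was 44.5% below the low glucose library, and the log2 ratio was -0.85 (-1.25 to -0.46). SLC2A2, SLC2A5 and SLC5A1, which encode the intestinal carriers GLUT2, GLUT5 and SGLT1, had no row in the table, so no ratio can be given.

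Reads from related genes could be divided between them by estimate. Of the 3841 stretches of 75 bases in the principal SLC2A3 transcript, 13.0% also occur in transcripts of SLC2A14, a close copy that lies 28081 bases away. SLC2A14 was at 1.05 and 1.01 estimated counts, below 3 counts in either library, so few reads were assigned to it. The share of such stretches found in any other gene was 4.37% for HK2 (its pseudogene HK2P1), 1.96% for HKDC1 and 1.5% for SLC2A1, the last pair including overlapping antisense transcripts. For HK1, 0 of 3531 stretches were shared. The library kit does not mark strand, so reads from a gene and its antisense partner cannot be told apart.

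Over the 13052 genes averaging 1 CPM or more, the median log2 ratio was -0.006. The 5 members with a row all reached that mean, with a median of -0.23. At a log2 ratio of -1 or less stood 1 of these 5 members, HKDC1, against 0.621% of all genes, and 0 members stood at 1 or more. The counting interval lay below 0 for 4 of the 5 members, against 15.9% of all genes, and above 0 for 1 of 5, HK1, against 15.8% of all genes. Since the members were proposed with this ratio known, and a deep transcript passes on a small difference, nothing is read from these counts.

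HKDC1 was at 17.7 CPM under low glucose and 7.04 CPM under high glucose. Its mean of 12.4 CPM passed a filter of 10 CPM only through the low glucose library. As a description, HKDC1 ranked 2 from the lowest log2 ratio among the 9345 genes averaging 10 CPM or more. Only DDIT3, which encodes the stress factor CHOP, ranked lower among them, at -1.53. The next in order were RF02164 at -1.29, STC2, which encodes the secreted glycoprotein stanniocalcin 2, at -1.11, and DDIT4, an inhibitor of mTORC1 signalling, at -1.06. Among all genes averaging 1 CPM or more, 28 genes (0.215%) had a lower ratio than HKDC1. SLC2A3, with a mean below 10 CPM, had 120 genes (0.919%) with a lower ratio. The log2 ratio of HK2 was larger in size than that of 87.8% of the genes averaging 10 CPM or more, against 60.2% for both SLC2A1 and HK1.

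**Figure D2:**
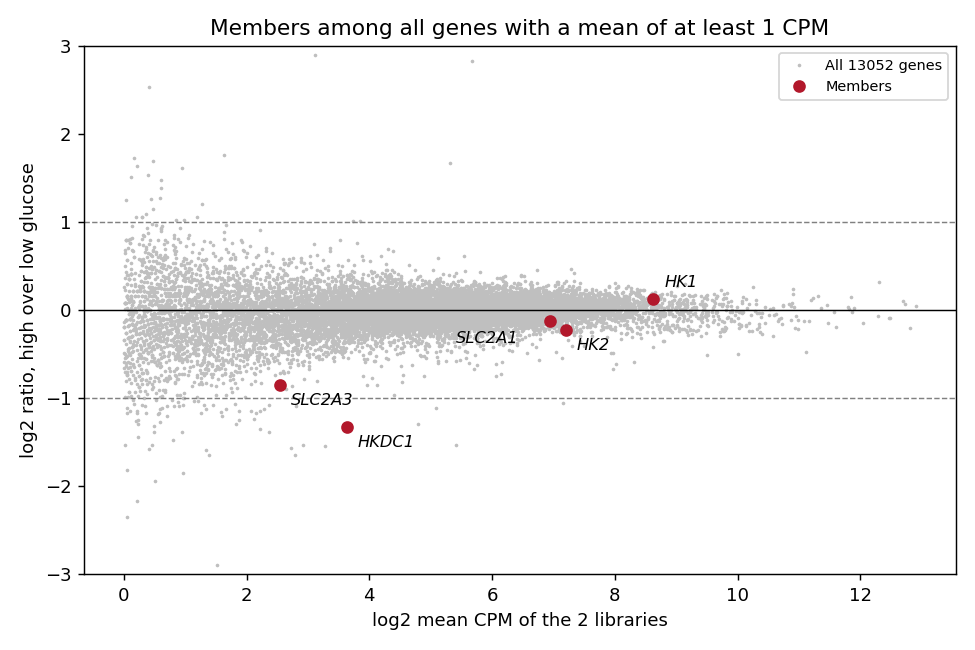
Log2 ratio of high over low glucose against log2 mean CPM of the 2 libraries for the 13052 genes averaging 1 CPM or more (grey) and the 5 members with a row (red); dashed lines stand at log2 ratios of -1 and 1, and 7 genes lie outside the plotted range. HKDC1 lies below the lower dashed line at -1.33, while SLC2A1, HK1 and HK2 lie near 0 among the abundant genes.

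Levels of different genes were compared per kilobase of the principal transcript. In low glucose the order of the hexokinases was HK1 at 105 CPM per kb, HK2 at 27.5 and HKDC1 at 4.81 (4.35 to 5.31). In high glucose the order was the same, with levels of 114 CPM per kb for HK1, 23.5 for HK2 and 1.91 for HKDC1 (1.61 to 2.25). No neighbours in that order had overlapping intervals in either library. The level of HK1 was 21.9 times that of HKDC1 in low glucose and 59.9 times in high glucose.

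The summed hexokinase level, over HK1, HK2 and HKDC1, was 137 CPM per kb in low glucose and 139.8 CPM per kb in high glucose. HKDC1 made up 3.50% of that sum in low glucose (interval from counts 3.17 to 3.86) and 1.37% in high glucose (1.16 to 1.61). HK2 made up 20.01% (19.4 to 20.6) and 16.8% (16.2 to 17.4). HK1 made up 76.5% (75.8 to 77.2) and 81.8% (81.2 to 82.5). The choice of length moves the shares of HK1 and HK2 by more than the 2 libraries differ: with coding length, HK1 made up 68.2% and 74.3%. The lower share of HKDC1 in the high glucose library held with each length tried.

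Among the SLC2A transcripts, SLC2A1 had 35.0 CPM per kb in low glucose and 32.1 in high glucose. This was 55.0% (53.6 to 56.4) and 55.2% (53.7 to 56.7) of the sum over the 9 SLC2A genes with a row. SLC2A8, a carrier of intracellular membranes, came next at 9.88 and 8.96 CPM per kb, before SLC2A13, a proton-coupled inositol carrier, at 7.23 and 6.56 and SLC2A6, a lysosomal carrier, at 6.27 and 6.56. The intervals of SLC2A13 and SLC2A6 overlapped in both libraries. With coding length SLC2A13 stood above SLC2A8, at 26.0 against 15.0 CPM per kb in low glucose. SLC2A3 was at 1.92 CPM per kb in low glucose (1.64 to 2.23) and 1.06 in high glucose (0.854 to 1.32), which was 3.02% and 1.83% of the sum.

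**Figure D3:**
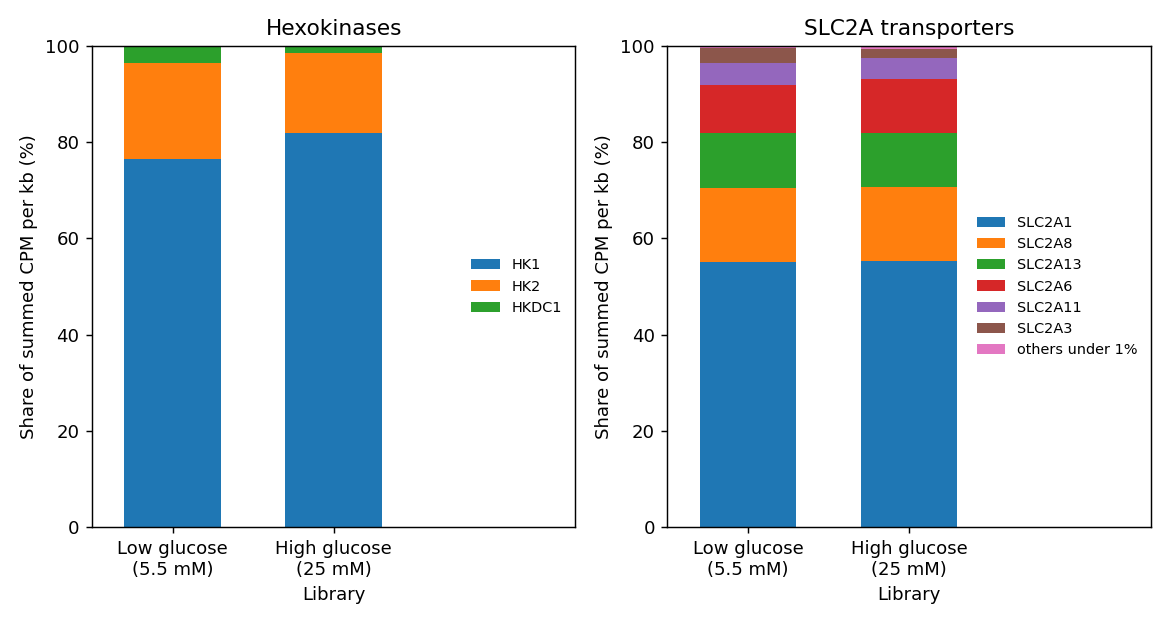
Share of each gene in the summed CPM per kb of principal transcript, in the low and high glucose library (1 library each), for hexokinases (left) and SLC2A transporters (right). HK1 takes 76.5% and 81.8% of the hexokinase bar and HKDC1 3.50% and 1.37%, while SLC2A1 takes 55.0% and 55.2% of the transporter bar.

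The relatives of the members were next examined. Of the 10 other SLC2A genes, 7 had a row and 4 averaged 1 CPM or more, with a median log2 ratio of -0.14. SLC2A13 was highest in CPM among them, at 50.6 and 45.9 CPM, and was the 1 gene whose counting interval left out 0 (-0.14, interval -0.27 to -0.01), against 15.9% of all genes below 0 and 15.8% above. SLC2A8 had a log2 ratio of -0.14 (-0.34 to 0.06) and SLC2A6 of 0.07 (-0.16 to 0.29). SLC2A4, the insulin-responsive carrier GLUT4, was at 0.933 and 0.782 CPM. SLC2A12 rested on 3.82 and 11.6 estimated counts, and the interval of its log2 ratio of 1.69 ran from -0.002 to 3.91.

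Of 7 other sugar and inositol carriers (6 SLC5A genes and SLC50A1), 3 had a row and 2 averaged 1 CPM or more. These were SLC50A1, the sugar carrier SWEET1, at 43.2 and 40.9 CPM, and SLC5A3, an inositol carrier, at 22.05 and 21.6 CPM, and both intervals held 0. All 7 genes listed as other sugar kinases averaged 1 CPM or more and the interval held 0 for all 7, as it did for 8916 of the 13052 genes averaging that much, with a median log2 ratio of -0.01. They ran from NAGK, N-acetylglucosamine kinase, at -0.16 (-0.35 to 0.02) to KHK, ketohexokinase, at 0.11 (-0.02 to 0.25) among those averaging 10 CPM or more. GALK2 had the most CPM, at 49.2 and 51.1, but not per kilobase of transcript, where it was at 9.28 CPM per kb under low glucose against 21.3 for NAGK.

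**Figure D4:**
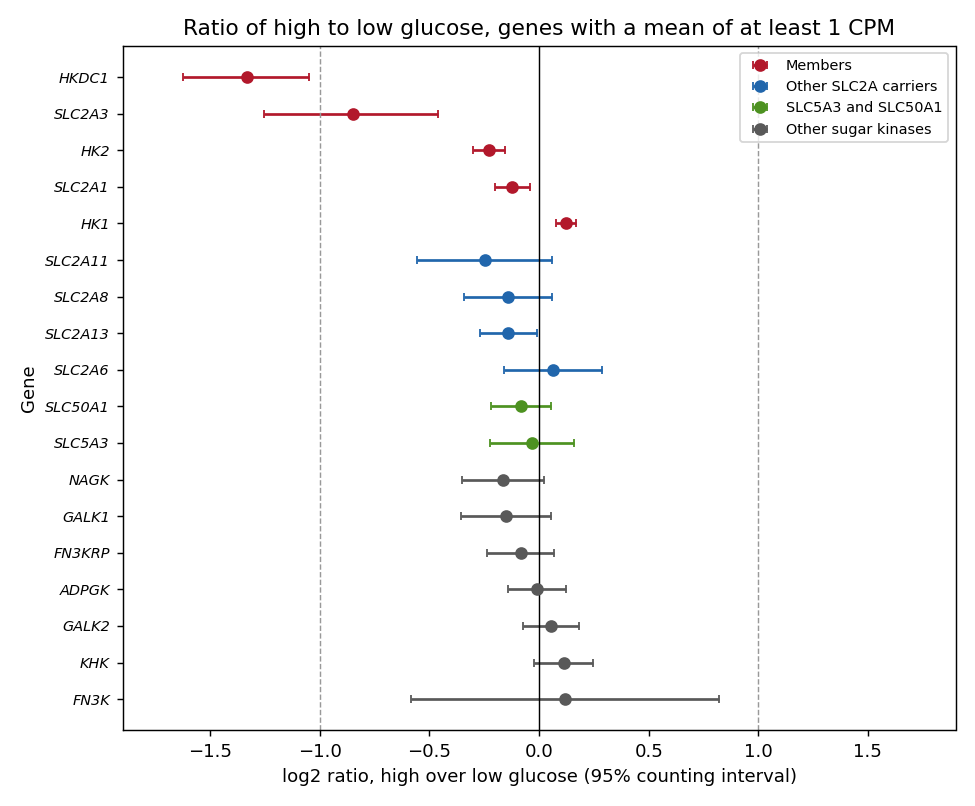
Log2 ratio of high over low glucose, with exact binomial 95% counting intervals, for members (red), other SLC2A carriers (blue), SLC5A3 and SLC50A1 (green) and other sugar kinases (grey) averaging 1 CPM or more, 1 library per concentration. HKDC1 at -1.33 and SLC2A3 at -0.85 lie to the left of every other gene plotted.

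Enzymes that use or make glucose 6-phosphate were listed under 12 symbols, with G6PC entered by its older and newer symbol, and 8 averaged 1 CPM or more. Their median log2 ratio was -0.02, with 2 of 8 intervals below 0, against 15.9% of all genes, and 0 above, against 15.8%. GPI, the isomerase that takes glucose 6-phosphate into glycolysis, was at 479 and 465 CPM. H6PD, the dehydrogenase of the endoplasmic reticulum, had the lowest ratio, at -0.21 (-0.35 to -0.08), and PGM1, phosphoglucomutase, the highest, at 0.06 (-0.11 to 0.23).

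For the later steps of glycolysis, lactate and its transport, 22 of 26 genes averaged 1 CPM or more, with a median log2 ratio of 0.01. The interval lay below 0 for 6 of the 22 genes, against 15.9% of all genes, above 0 for 8, against 15.8%, and held 0 for 8. Many of these transcripts are abundant, so small differences pass the counting interval, and nothing is read from these counts. The lowest was PFKFB2, which sets the level of fructose 2,6-bisphosphate, at -0.40 (-0.63 to -0.17), and the highest was LDHA, lactate dehydrogenase A, at 0.26 (0.23 to 0.28). GAPDH, with the most CPM of them, was at 5829 and 5457 CPM. Of these 22 genes, 0 reached a log2 ratio of 1 in either direction, against 109 of all 13052 genes.

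**Figure D5:**
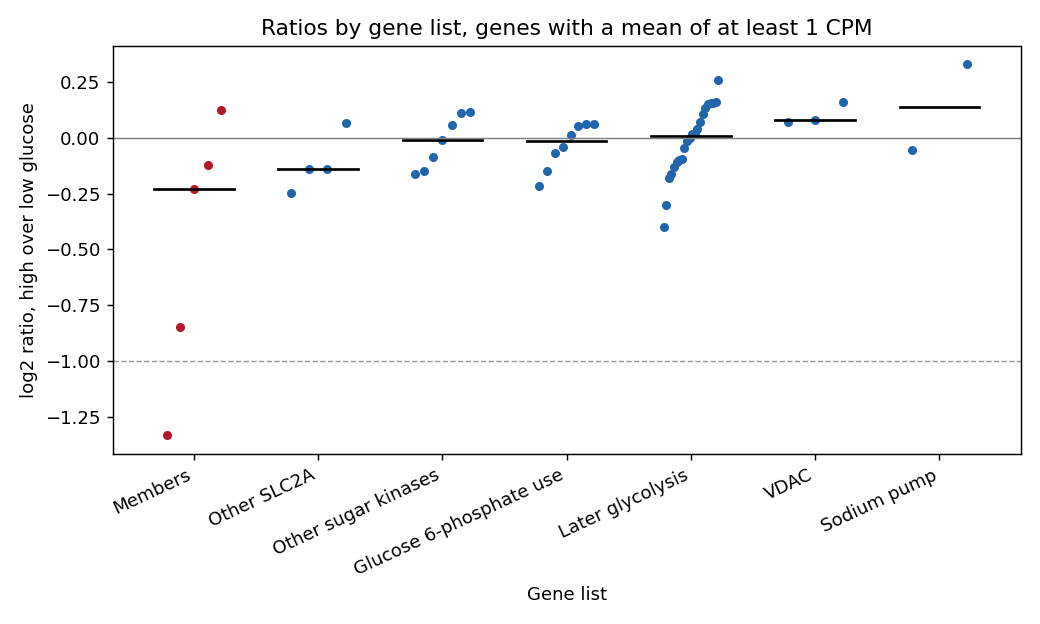
Log2 ratio of high over low glucose for each gene averaging 1 CPM or more (points, ordered within a list) and the median of the list (bar), for the 5 members in red and 6 related lists in blue. The members' median is -0.23, and HKDC1, at -1.33, is the point below the dashed line at -1.

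The mitochondrial channels that bind hexokinases, VDAC1, VDAC2 and VDAC3, were all slightly higher in high glucose, with log2 ratios of 0.07, 0.08 and 0.16 and intervals above 0 for all 3, against 15.8% of all genes. Differences of this size pass on counts alone in abundant transcripts, and VDAC1 had the most CPM of the 3, at 278 and 292. Of the sodium pump subunits, which keep the gradient that sodium-coupled carriers use, 2 of the 4 described here averaged 1 CPM or more. ATP1B1, at 412 and 396 CPM, had a log2 ratio of -0.06 (-0.10 to -0.01), and ATP1B3, at 64.5 and 81.0 CPM, a log2 ratio of 0.33 (0.22 to 0.43).

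The 6 genes flanking HKDC1 and HK1 on chromosome 10 are given as a description. HKDC1 was proposed with its low ratio known. Only 0.215% of genes averaging 1 CPM or more had a lower one, so nothing is read from the ratios of its neighbours. NEUROG3, on few counts, had a log2 ratio of -0.35 (interval -1.99 to 1.18). SUPV3L1, the gene before HKDC1, was at 44.7 and 43.0 CPM (log2 ratio -0.06, interval -0.19 to 0.08), and VPS26A before it at 117 and 114 CPM (-0.04, -0.12 to 0.05). After HK1, TACR2 was at 0.841 and 0.885 CPM and TSPAN15 at 19.1 and 16.2 CPM (-0.24, -0.45 to -0.02). The outermost genes examined, SRGN and NEUROG3, rested on 3 and 8 and on 10 and 7 estimated counts.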

How the data were processed

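RNA of hNCI-H716 cells was measured in 2 libraries, 1 per glucose concentration, grouped by the treatment label. Per the submitters' processing notes and the study's methods, reads were trimmed (Trim Galore 0.5.0), aligned to GRCh38 with STAR 2.6.0 and counted per gene with RSEM 1.3.1. Per the methods, the authors removed genes with a total expected count below 1 over both libraries, and the lowest total recovered here was 1.01. The authors deposited CPM per library with a small prior, and the 2 deposited CPM columns were used here. The table also holds log2 CPM, the authors' mean, log2 difference and fold, none of which was used.

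Without the prior (0.25 counts in a library of mean size), library totals were recovered from the steps between low CPM. Of values under 10 CPM, 73.6% and 74.0% were whole counts within 0.05, so values were treated as estimates and no count model was run. CPM were divided by TMM factors computed from the recovered counts (0.998 and 1.002). Intervals were Wilson for CPM and exact binomial for log2 ratios. Python 3.11.15, numpy 2.4.6, pandas 2.3.3 and scipy 1.17.1 were used, and the calculations were tested on simulated data. Positions and lengths came from GENCODE v29, a release close to that of the study.

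The members and lists were chosen with earlier results of these data known. Named were all members, the highest gene and the extreme ratios of each related list among genes averaging 10 CPM or more, up to 3 genes on each side of HKDC1 in rank, and 3 flanking genes on each side of HKDC1 and HK1. SLC2A4, SLC2A12 and the marker genes named were picked after their values were seen. Some listed genes are not reported here and were left out of the lists and of the hexokinase sum. The alternatives were other scalings, pseudocounts, filters and lengths.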

Additional observations from a re-analysis of the deposited data

How the results depend on the processing

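Of 78 values recomputed over 19 results, 57 stayed within the counting interval or within 1.5 times the main count, 21 moved and 0 changed sign. Counts and shares cannot change sign, so only the log2 ratios and their median could have done so. All 25 recomputed log2 ratios of the 5 members stayed, whether scaled by totals only or by median-of-ratios factors, without the prior, or with pseudocounts of 1 and 0.1 CPM. With TMM factors of 0.998 and 1.002 and a prior of 0.25 counts, the scalings and the prior could move these ratios little. With the pseudocount of 1 CPM, SLC2A3 was at -0.72 and HKDC1 at -1.22. The count of genes at a log2 ratio of 1 or more in size was 109 (81 lower), against 31 with a pseudocount of 1 CPM, 2932 without a filter (1719 lower) and 9 among genes averaging 10 CPM or more (5 lower), by construction of the filters and the pseudocount. With coding length, the low and high glucose shares were 68.2% and 74.3% for HK1, 28.6% and 24.4% for HK2, and 57.7% and 58.3% for SLC2A1. With merged exons they were 66.5% and 73.2% for HK1, 28.9% and 25.0% for HK2, 4.60% and 1.85% for HKDC1, and 60.7% and 60.7% for SLC2A1. With no length correction they were 68.2% and 74.3% for HK1 and 28.6% and 24.4% for HK2, the same as with coding length because all 3 coding sequences have 2751 bases. These changes follow from the lengths. RSEM's own effective lengths were not used here. Few counts limit SLC2A12 and SLC2A14, among other genes. No paired analysis was possible because 1 library was made at 5.5 mM and 1 at 25 mM.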

Other observations

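Among the enzymes of the intestinal brush border that release monosaccharides for these transporters, SI, which encodes sucrase-isomaltase, was at 117 CPM under low glucose (112 to 121) and 124 CPM under high glucose (119 to 129), a log2 ratio of 0.08 (0.004 to 0.17). LCT, MGAM and TREH had no row. SI was thus measured in a line in which the genes of the intestinal sugar carriers GLUT2, GLUT5 and SGLT1 had no row.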
